A study of Saccharomyces cerevisiae with 12 samples.

Results

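The 10 genes described here make and regulate inositol and the phospholipids of yeast membranes. They were taken by standard gene name from the 3′ READS profiles (*INO1*, *INO2*, *INO4*, *OPI1*, *OPI3*, *CHO1*, *CHO2*, *PSD1*, *ITR1* and *PIS1*), and all 10 were found among the 5798 ORFs of the 6198 profiled features. The study asked how RNA polymerase II elongation relates to polyadenylation, and its 3′ READS libraries mapped poly(A) sites in a pair of deletion strains of *Saccharomyces cerevisiae*. In the *rpb4Δ* strain the *RPB4* gene was replaced by *HIS3*, and in the *ubp8Δ* strain *UBP8* was replaced by *HIS3*. Rpb4 belongs to the stalk of the polymerase, and Ubp8 removes ubiquitin from histones as part of SAGA, a transcription coactivator. Both strains also carried *RPB3* with a 3xFLAG tag and a NAT marker, and both were grown in YPD, a rich medium, at 30 °C to mid-log phase. The 2 biological replicates of each strain had been pooled by the authors into 1 profile, so no replicate error exists, no difference between the strains could be tested against it, and all intervals below cover counting error of reads only. A wild-type 3′ READS profile was not analysed here, so each difference is between the deletion strains and cannot be assigned to either deletion.

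In yeast, inositol is taken up from the medium or made from glucose 6-phosphate, and is joined to CDP-diacylglycerol to give phosphatidylinositol. The same CDP-diacylglycerol is used with serine to give phosphatidylserine, which is decarboxylated to phosphatidylethanolamine and then methylated to phosphatidylcholine. Many genes of both branches carry a promoter element bound by the activators Ino2 and Ino4, and the repressor Opi1 acts on these activators when inositol is plentiful.

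The window of each gene was the 400 nt downstream of its stop codon, where reads mark the cleavage and poly(A) site. A read marks an mRNA end, so values are reads scaled to library size (RPM), not divided by gene length. By the common step of the values, 1 read was worth 0.395 RPM in *rpb4Δ* and 0.0614 RPM in *ubp8Δ*. If RPM was scaled to all reads of a library, which the sources do not describe, the totals were 2529381 reads in *rpb4Δ* and 16276274 in *ubp8Δ*. The 10 windows held 2584 reads in *rpb4Δ*, between 6 and 817 per gene, and 55465 reads in *ubp8Δ*, between 129 and 18054 per gene. Inside the ORF the deleted genes matched the labels: *RPB4* had 0 reads in *rpb4Δ* against 244 in *ubp8Δ*, and *UBP8* had 12 reads in *rpb4Δ* against 0 in *ubp8Δ*. The windows downstream of both ORFs were not empty. That of *RPB4* held 30.08 RPM (76 reads) in *rpb4Δ* against 169.62 RPM in *ubp8Δ*. That of *UBP8* held 20.17 RPM in *rpb4Δ* against 9.2 RPM (150 reads) in *ubp8Δ*. Across the 4248 ORFs with at least 20 reads in both libraries the median log2 ratio of window signal, *rpb4Δ* over *ubp8Δ*, was 0.15, and single ratios are given without correction for this shift.

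Several genes of the pathway gave less signal in *rpb4Δ* than in *ubp8Δ*. A minimum of 20 reads in each library was met by 8 members, and 4 of these 8 were lower past 2-fold in *rpb4Δ* (*INO4*, *OPI3*, *CHO1* and *PSD1*), beside 11.4% of all 4248 ORFs, and 1 was higher past 2-fold (*OPI1*), beside 19% of all ORFs. *INO1* and *INO2* missed the minimum because they had 16 and 6 reads in *rpb4Δ*. With at least 20 reads in either library, a rule added after the data had been seen, 6 of 10 members were lower, beside 19.9% of 5259 ORFs, and 1 of 10 was higher, beside 17%. *INO1* and *INO2* pass that rule only through *ubp8Δ*, where they are high. Passing in this way favours a call of lower in *rpb4Δ* without forcing it, so nothing is read from the larger count. With 1 read in each library as the minimum the counts were the same, beside 17.7% of 5289 ORFs lower and 18.9% higher. They again include *INO1* and *INO2*, so nothing is read from them either. The median log2 ratio of the 8 better covered members was -1.03, against 0.15 for the 4248 ORFs. That of all 10 members, which includes *INO1* and *INO2*, was -1.68, against 0.06 for all 5289 ORFs with a read in both libraries.

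**Figure D1:**
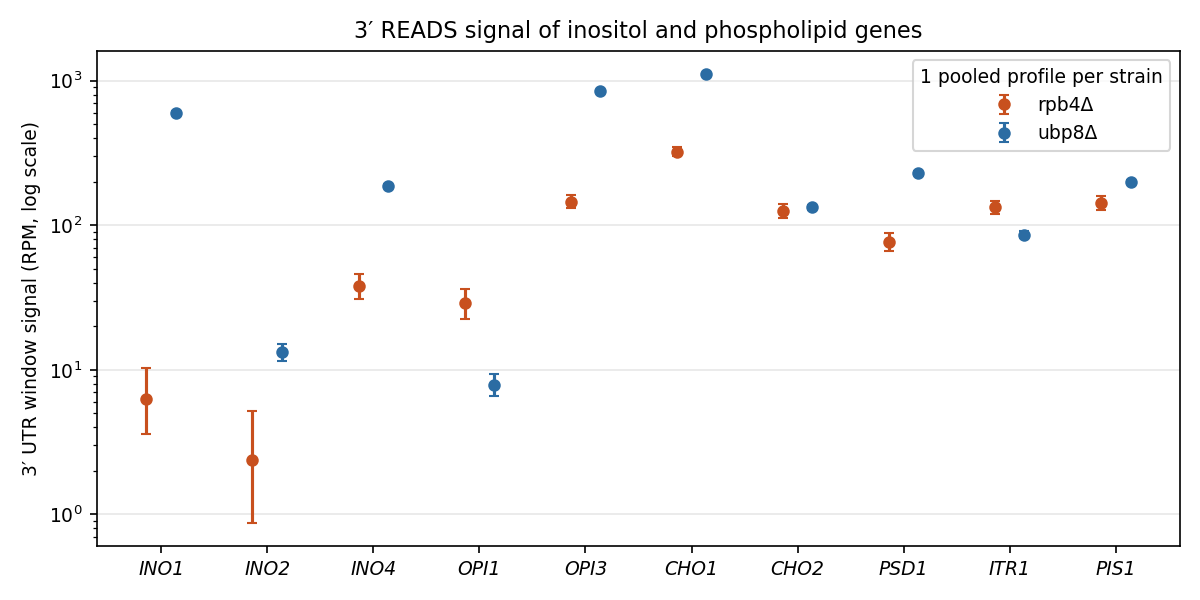
Window signal of the 10 genes in RPM on a log axis, 1 pooled profile per strain, with exact Poisson 95% intervals of the recovered reads (*rpb4Δ* in orange, left of *ubp8Δ* in blue, for each gene). *INO1* shows the widest separation, with 6.33 RPM in *rpb4Δ* and 600.72 RPM in *ubp8Δ*, and *OPI1* and *ITR1* are the genes with more signal in *rpb4Δ*.

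The short sequences shown here are the stretches of promoter that hold the core of the Ino2 and Ino4 element, CATGTG. They come from the 6 members lower past 2-fold in *rpb4Δ* with at least 1 read in each library. Of these, *INO1* and *INO2* missed the minimum of 20 reads and are not among the 4 called above. The 500 nt before each start codon were searched on both strands, where a match on the opposite strand reads CACATG on the gene's strand. For each gene the match nearest to its start codon is given, on the gene's strand, 5′ to 3′, from the R64 (SacCer3) reference, with the core in capitals.
INO1: acttatttaattCACATGgagcagagaaag
INO2: aagtacaacacaCATGTGaatttttttcag
INO4: aaacaaaatattCACATGtttttctcacct
OPI3: tatgcaaacccaCACATGcatcgttggttt
CHO1: cctttgagctttCACATGgacccatctaaa
PSD1: agcaggcacaagCATGTGgaaaatttgttc
The stretch of *INO1* lies at chrX:136094-136123 with its core 178 nt before the start codon, that of *INO2* at chrIV:699595-699624 (144 nt), and that of *INO4* at chrXV:111990-112019 (121 nt). The stretch of *OPI3* lies at chrX:573066-573095 (148 nt), that of *CHO1* at chrV:208616-208645 (159 nt) and that of *PSD1* at chrXIV:317818-317847 (164 nt). All 6 genes are on the minus strand.

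CATGTG was present in the promoters of 8 of the 10 members, beside 13.2% of the 5798 ORFs, and was not found in those of *OPI1* and *PIS1*. Among the members with 20 reads in both libraries it was present in all 4 that were lower past 2-fold and in 2 of the other 4, *CHO2* and *ITR1*, and it was also present in *INO1* and *INO2*. *CHO2* and *ITR1* each had 3 matches, the most among the members. In *INO2* and *CHO2* a match on each strand overlapped, since the letters read nearly alike in both directions. Over all ORFs with at least 20 reads in both libraries, 15.5% of the 485 that were lower past 2-fold in *rpb4Δ* had a match, against 12.6% of the other 3763. A longer form of the element, which extends CATGTG, was also searched in these promoters. It was found in 0 of the 10 members, beside 4 of the 5798 ORFs. The stretches printed above therefore hold the core but not this longer form. The CATGTG matches describe letters in a window and do not show binding.

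Both activator genes gave less signal in *rpb4Δ*. Coordinates after each gene are those of its ORF in SacCer3. *INO2* (chrIV:698554-699468, minus strand) encodes a helix-loop-helix activator, and its window held 2.38 RPM in *rpb4Δ* (95% interval 0.87 to 5.16, 6 reads) and 13.2 RPM in *ubp8Δ* (11.5 to 15.1, 215 reads). The log2 ratio of -2.47 had an interval of -3.94 to -1.33, which is wide because it rests on 6 reads in *rpb4Δ*. *INO4* (chrXV:111431-111886, minus strand) encodes the partner with which Ino2 binds DNA, and it had 37.97 RPM in *rpb4Δ* (30.7 to 46.3, 96 reads) against 186.39 RPM in *ubp8Δ* (180 to 193, 3034 reads). Its log2 ratio was -2.30 (-2.60 to -2.0), a 4.91-fold lower signal, so the intervals of both activators lay wholly below 2-fold.

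*OPI1* (chrVIII:66242-67456, minus strand), which encodes the repressor of these genes, went the other way. Its window held 28.86 RPM in *rpb4Δ* (22.6 to 36.3, 73 reads) and 7.92 RPM in *ubp8Δ* (6.62 to 9.42, 129 reads). The log2 ratio was 1.87 (1.43 to 2.29), 3.64-fold higher in *rpb4Δ*, and *OPI1* was the least abundant member in *ubp8Δ* but not in *rpb4Δ*, where *INO2* and *INO1* were lower. The size of this difference depended on which signal was counted, because the poly(A) sites of *OPI1* also differed: at its highest position alone the log2 ratio was 0.90, and with window and ORF reads together it was 1.5.

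*INO1* (chrX:134332-135933, minus strand), which encodes the inositol 3-phosphate synthase that commits glucose 6-phosphate to inositol, showed the largest difference of the 10 genes. It had 6.33 RPM in *rpb4Δ* (3.62 to 10.3, 16 reads) and 600.72 RPM in *ubp8Δ* (589 to 613, 9777 reads). In *ubp8Δ* it ranked below *CHO1* and *OPI3* only among the members, and in *rpb4Δ* it ranked above *INO2* only. The log2 ratio was -6.57 (-7.38 to -5.87), a 94.9-fold lower signal, and this was the 4th lowest ratio of the 5289 ORFs with a read in both libraries, after *VEL1*, *RGI1* and *ZPS1*. Because *rpb4Δ* gave 16 reads for *INO1*, its level there is known only to within its interval.

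*ITR1* (chrIV:1443713-1445467, minus strand), which encodes the main myo-inositol transporter of the plasma membrane, was not lower in the window. It had 132.86 RPM in *rpb4Δ* (119 to 148, 336 reads) and 86.09 RPM in *ubp8Δ* (81.6 to 90.7, 1401 reads), a log2 ratio of 0.63 (0.45 to 0.80). When reads inside the ORF were added, the values were 156.30 RPM in *rpb4Δ* and 165.17 RPM in *ubp8Δ*, and the log2 ratio changed sign to -0.08. At the highest position alone it was 2.28, past 2-fold, so the value for *ITR1* depended on the signal counted. The higher window signal of *ITR1* in *rpb4Δ* went with a lower share of reads inside its ORF, and the total signal of the gene was close to level between the strains.

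*PIS1* (chrXVI:752257-752919, plus strand), which encodes phosphatidylinositol synthase, had 142.74 RPM in *rpb4Δ* (128 to 158, 361 reads) and 198.44 RPM in *ubp8Δ* (192 to 205, 3230 reads). The log2 ratio of -0.48 (-0.64 to -0.32) was a 1.39-fold lower signal and did not pass 2-fold. *PIS1* and *OPI1* were the members without CATGTG in the promoter.

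On the route from CDP-diacylglycerol to phosphatidylcholine, *CHO1* and *PSD1* were lower in *rpb4Δ* past 2-fold. *CHO1* (chrV:207644-208474, minus strand) encodes phosphatidylserine synthase and was the most abundant member in both strains, with 323.05 RPM in *rpb4Δ* (301 to 346, 817 reads) and 1109.24 RPM in *ubp8Δ* (1093 to 1126, 18054 reads). Its log2 ratio was -1.78 (-1.88 to -1.68), or 3.43-fold lower. *PSD1* (chrXIV:316169-317671, minus strand) encodes the mitochondrial phosphatidylserine decarboxylase, and it had 76.32 RPM in *rpb4Δ* (65.9 to 87.9, 193 reads) against 228.34 RPM in *ubp8Δ* (221 to 236, 3717 reads), a log2 ratio of -1.58 (-1.80 to -1.37). *PSD2*, named after its values were seen, encodes another phosphatidylserine decarboxylase and had 22.95 RPM in *rpb4Δ* and 24.2 RPM in *ubp8Δ*, a log2 ratio of -0.08 (-0.50 to 0.32).

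The methyltransferases that follow differed from each other. *CHO2* (chrVII:802440-805049, plus strand), which adds the first methyl group to phosphatidylethanolamine, had 125.35 RPM in *rpb4Δ* (112 to 140, 317 reads) and 133.23 RPM in *ubp8Δ* (128 to 139, 2168 reads), with a log2 ratio of -0.09 whose interval of -0.26 to 0.08 included no difference. *OPI3* (chrX:572315-572935, minus strand), which adds the later methyl groups, had 145.94 RPM in *rpb4Δ* (131 to 162, 369 reads) and 844.17 RPM in *ubp8Δ* (830 to 858, 13740 reads), a log2 ratio of -2.53 (-2.69 to -2.38). *OPI3* thus stood far above *CHO2* in *ubp8Δ*, while in *rpb4Δ* the intervals of these genes overlapped. With window and ORF reads together *CHO2* was lower in *rpb4Δ* as well, at 143.61 RPM in *rpb4Δ* and 291.90 RPM in *ubp8Δ*, a log2 ratio of -1.02.

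**Figure D2:**
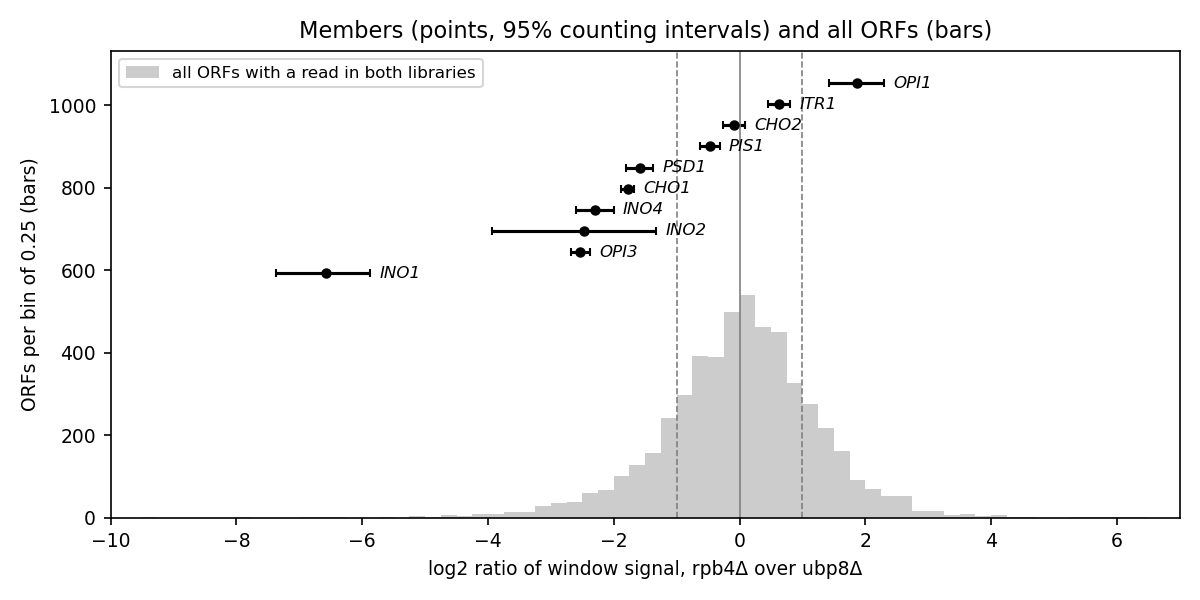
Log2 ratio of window signal, *rpb4Δ* over *ubp8Δ*, for the 10 genes (points with 95% counting intervals, at arbitrary heights) above a histogram of the 5289 ORFs with a read in both libraries (bars, ORFs per bin of 0.25). Dashed lines mark 2-fold; *INO1*, *OPI3*, *INO2*, *INO4*, *CHO1* and *PSD1* lie to the left of them, and *OPI1* lies to the right.

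Genes elsewhere in phospholipid metabolism centred near equal signal. A list of 31 further genes of the pathways (other transporters, the choline and ethanolamine branch, phosphatidic acid, cardiolipin and turnover) had a median log2 ratio of 0.01 over the 26 genes with at least 20 reads in both libraries. Of these 26, 4 were lower past 2-fold in *rpb4Δ* (*PAH1*, *EPT1*, *ALE1* and *SCS2*) and 3 were higher (*INM2*, *GEP4* and *LPP1*), beside 11.4% of all ORFs lower and 19% higher. *SCS2*, which encodes the endoplasmic reticulum protein that anchors Opi1 outside the nucleus, had the lowest ratio, with 557.49 RPM in *rpb4Δ* against 1877.19 RPM in *ubp8Δ*, a log2 ratio of -1.75 (-1.83 to -1.67). *ALE1*, a lysophospholipid acyltransferase gene, followed with 12.27 RPM in *rpb4Δ* against 32.92 RPM in *ubp8Δ*, a log2 ratio of -1.42 (-2.0 to -0.90). At the other end stood *LPP1*, a lipid phosphate phosphatase gene, with 83.83 RPM in *rpb4Δ* against 24.57 RPM in *ubp8Δ*, a log2 ratio of 1.77 (1.52 to 2.01). *INM2*, an inositol monophosphatase gene, had 82.66 RPM in *rpb4Δ* against 33.14 RPM in *ubp8Δ*, a log2 ratio of 1.32 (1.08 to 1.55). CATGTG was in the promoters of 8 of the 31 genes, beside 13.2% of all ORFs, and the longer form of the element was in 0 of the 31.

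The highest poly(A) site of most members lay at the same nucleotide in both strains, but the shares of sites differed. The sequences here show the stretch around the highest site of 5 members that differ in how far the strains agree. Each is on the gene's strand, 5′ to 3′, from the R64 reference, and capitals mark bases with at least 5% of that strain's window signal.
INO1 in rpb4Δ: attcaactatcaacagtcttTatatttttt
INO1 in ubp8Δ: attcaactatcaacagtcttTatattTTtt
OPI1 in rpb4Δ: ataatcataatcataatcgtGatattgTaC
OPI1 in ubp8Δ: ataatcataatcataatcgtGatattGTac
ITR1 in rpb4Δ: agaaaaaagttcattgTattTaagtcGaac
ITR1 in ubp8Δ: aGaaaaaagttcattgTattTaagtcGaac
PSD1 in rpb4Δ: tagtattatctgcacactttGattTaattC
PSD1 in ubp8Δ: tagtattatctgcacactttGattTaattc
CHO2 in both strains: atggagctacCatatatgcaGaatGacatt
The *INO1* stretch is chrX:134186-134215, 117 to 146 nt downstream of the stop codon, and held 81.2% of the window signal in *rpb4Δ* and 97.2% in *ubp8Δ*. The *OPI1* stretch is chrVIII:66117-66146 (96 to 125 nt; 75.4% in *rpb4Δ* and 83.0% in *ubp8Δ*), and the *ITR1* stretch is chrIV:1443601-1443630 (83 to 112 nt; 84.5% in *rpb4Δ* and 43.3% in *ubp8Δ*). The *PSD1* stretch is chrXIV:316099-316128 (41 to 70 nt; 46.6% in *rpb4Δ* and 32.0% in *ubp8Δ*), and the *CHO2* stretch, on the plus strand, is chrVII:805137-805166 (88 to 117 nt; 64.3% in *rpb4Δ* and 40.9% in *ubp8Δ*). In *ITR1*, *PSD1* and *CHO2* the stretch took up a larger share of the signal in *rpb4Δ*, and in *INO1* and *OPI1* a smaller share. For *INO1* that share rests on 16 reads in *rpb4Δ*. For *OPI1* it depends on where the stretch ends, since the site at 126 nt held 19.2% in *rpb4Δ* and 3.16% in *ubp8Δ*. Positions 101 to 150 nt of *OPI1* held 100% of the signal in *rpb4Δ* and 86.1% in *ubp8Δ*.

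The highest position was the same nucleotide in both strains in 6 of the 8 members with 20 reads in both libraries, beside 60.5% of all ORFs. These were *INO4* at 222 nt downstream of the stop codon, *OPI1* at 116 nt, *OPI3* at 46 nt, *CHO1* at 95 nt, *ITR1* at 103 nt and *PIS1* at 96 nt. In *CHO2* it was at 112 nt in *rpb4Δ* and 108 nt in *ubp8Δ*, and in *PSD1* at 65 nt in *rpb4Δ* and 61 nt in *ubp8Δ*, each of which is a strong site in the other strain too. *INO1* also had its highest position at 137 nt in both strains, with 13 of its 16 reads in *rpb4Δ* there and 71.8% of its signal in *ubp8Δ*. *INO2* differed, at 212 nt in *rpb4Δ* with 3 reads and at 182 nt in *ubp8Δ* with 59 reads, but its 6 reads do not describe a profile in *rpb4Δ*. Counting these genes too, the highest position was shared in 7 of 10, beside 52.6% of ORFs with a read in both libraries. The percent of signal that both strains placed on the same nucleotides had a median of 65.5% over the 8 members, against 65.7% over all ORFs, and it was between 39.0% in *OPI1* and 82.7% in *CHO1*.

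**Figure D3:**
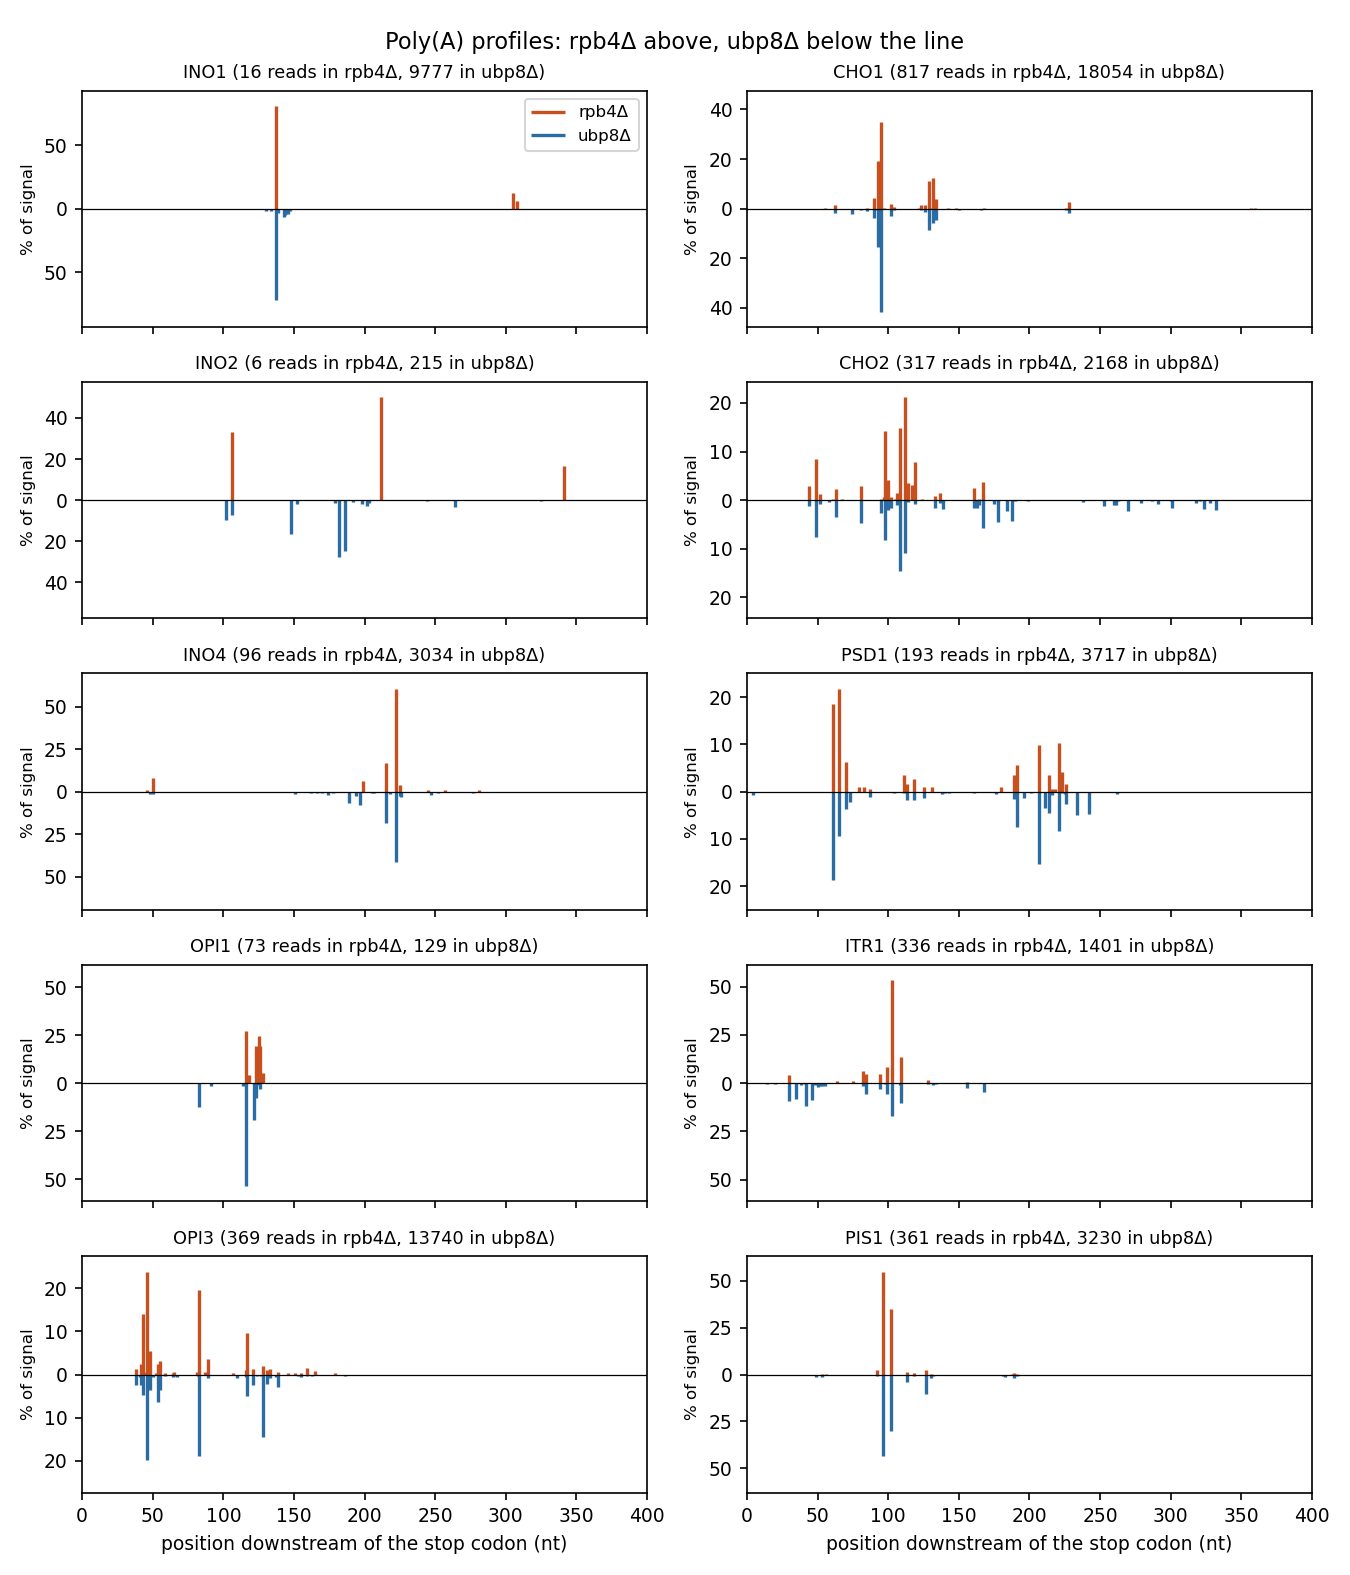
Poly(A) profiles of the 10 genes, as percent of window signal at each nucleotide downstream of the stop codon (*rpb4Δ* upwards in orange, *ubp8Δ* downwards in blue, recovered reads in the panel titles). In *ITR1* the cluster of sites within 50 nt of the stop codon is strong in *ubp8Δ* and weak in *rpb4Δ*, and in *CHO2* the sites from 251 nt onwards appear in *ubp8Δ* alone.

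Among the 8 better covered members, *ITR1* showed the largest move towards distal sites. Positions 1 to 50 nt downstream of its stop codon held 4.77% of the window signal in *rpb4Δ* and 42.7% in *ubp8Δ*, which is 6.33 RPM against 36.7 RPM. In *rpb4Δ* the site at 103 nt took 53.3% of the signal, against 16.9% in *ubp8Δ*, and the sites at 35, 42 and 46 nt had 0, 1 and 0 reads in *rpb4Δ* against 116, 163 and 126 reads in *ubp8Δ*. The share at 101 to 150 nt was 68.5% in *rpb4Δ* and 29.6% in *ubp8Δ*. The weighted average position, the mean of positions weighted by signal, was accordingly at 97.4 nt in *rpb4Δ* and 77.0 nt in *ubp8Δ*, a difference of 20.4 nt (SE 1.43 from the reads).

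*CHO2* moved the other way. Its weighted average lay at 103 nt in *rpb4Δ* and 140 nt in *ubp8Δ*, a difference of -37.1 nt (SE 2.22), although the main sites at 98, 108 and 112 nt were shared. The move rested on weak distal sites: it was -4 nt by the weighted median and -4.14 nt with sites of at least 5%, neither of which reaches 20 nt. Positions 251 to 400 nt had 0 reads in *rpb4Δ*, against 13.5% of the signal, or 18.1 RPM, in *ubp8Δ*, where 3 reads in *rpb4Δ* would have been 1.19 RPM. Positions 151 to 200 nt held 6.62% in *rpb4Δ* and 22.2% in *ubp8Δ*. The distal sites of *CHO2* in *ubp8Δ* thus stood above the limit that the depth of *rpb4Δ* sets.

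*PSD1* had a proximal and a distal cluster of sites in both strains. Positions 51 to 100 nt held 49.2% of the signal in *rpb4Δ* and 35.4% in *ubp8Δ*, and positions 201 to 250 nt held 30.6% in *rpb4Δ* and 45.7% in *ubp8Δ*. The weighted average was 129 nt in *rpb4Δ* and 153 nt in *ubp8Δ*, a difference of -23.9 nt (SE 5.10). Thus 2 of 8 members lay at least 20 nt upstream in *rpb4Δ*, beside 10.8% of all ORFs, and 1 of 8 lay at least 20 nt downstream, beside 9.02%. The members' median difference was -4.00 nt, against -0.58 nt for all ORFs.

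Within the remaining profiles single sites exchanged share. In *OPI1* the site at 116 nt held 27.4% of the signal in *rpb4Δ* and 53.5% in *ubp8Δ*, while the site at 125 nt held 24.7% in *rpb4Δ* and 0.76% in *ubp8Δ*. *OPI1* sites at 83 and 122 nt had 0 reads in *rpb4Δ* against 16 and 25 reads in *ubp8Δ*. These positions of *OPI1* lie within a few nucleotides of each other apart from that at 83 nt, and its weighted average differed by only 8.62 nt (SE 1.20).
In *OPI3* the site at 43 nt held 14.1% in *rpb4Δ* and 4.64% in *ubp8Δ*, and the site at 128 nt held 1.90% in *rpb4Δ* and 14.6% in *ubp8Δ*, so that its weighted average lay 10.2 nt upstream in *rpb4Δ* (SE 1.77). In *PIS1* the site at 127 nt held 2.5% in *rpb4Δ* and 10.4% in *ubp8Δ*, with a difference in weighted average of -5.97 nt (SE 0.84). *CHO1* had the same pair of strongest sites in both strains, with 35.1% in *rpb4Δ* and 41.4% in *ubp8Δ* at 95 nt and 19.1% in *rpb4Δ* and 15.6% in *ubp8Δ* at 93 nt. *INO4* had 60.4% of its signal at 222 nt in *rpb4Δ* and 41.1% in *ubp8Δ*, and its weighted average differed by -2.03 nt (SE 5.23), less than the counting error.

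The members had fewer positions with a read in *rpb4Δ*, also at equal reads. Together their windows had 148 positions with a read in *rpb4Δ* and 368 in *ubp8Δ*, of which 123 were shared, or 83.1% of those in *rpb4Δ* and 33.4% of those in *ubp8Δ*, beside 72.1% of those in *rpb4Δ* and 47.2% of those in *ubp8Δ* over all ORFs. The *ubp8Δ* library is deeper, so its profile of each gene was thinned by calculation to the number of *rpb4Δ* reads. *OPI3* then had 31 positions in *rpb4Δ* against 35.6 expected in thinned *ubp8Δ*, *CHO1* 24 against 41.2, *CHO2* 25 against 39.2 and *ITR1* 14 against 24.8. Fewer positions in *rpb4Δ* were found in 8 of 8 members, beside 66.8% of the ORFs that could be compared. The ratio of the numbers had a median of 0.66 over these 8 members, against 0.90 over all ORFs, and the lowest was 0.50 in *INO4*, with 9 positions in *rpb4Δ* against 17.9. Sites of at least 5% had a median number of 4 per member in both strains, so that median shows no gap. Thinning treats reads as independent molecules, which PCR reads without molecular identifiers are not.

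Near the highest sites, the letters TATATA, which resemble an efficiency element of yeast poly(A) signals, were searched on the transcribed strand in the 100 nt upstream of each highest position. They were present in 4 of 10 members (*OPI1*, *OPI3*, *CHO2* and *PSD1*) in *rpb4Δ* and in the same 4 in *ubp8Δ*, beside 43.8% of ORFs for *rpb4Δ* and 41.8% for *ubp8Δ*. AATAAA, searched in the same way, was present in *ITR1* alone, in both strains, beside 18.9% of ORFs for *rpb4Δ* and 18.8% for *ubp8Δ*. Only 1 member, *OPI1*, was higher past 2-fold, so whether either motif separates higher from lower members cannot be told.

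Reads inside the ORF were frequent in 3 members in *ubp8Δ* and less so in *rpb4Δ*. A share of at least 30% was found in 0 of 8 members in *rpb4Δ*, beside 16% of 4603 ORFs, and in 3 of 8 in *ubp8Δ*, beside 30.3%. *CHO2* had 12.7% of its reads inside the ORF in *rpb4Δ* (46 reads; Wilson 95% interval 9.64% to 16.5%) and 54.4% in *ubp8Δ* (2583 reads; 52.9% to 55.8%). *ITR1* had 15.0% in *rpb4Δ* (59 reads; 11.8% to 18.8%) and 47.9% in *ubp8Δ* (1287 reads; 46.0% to 49.8%). *PSD1* had 20.3% in *rpb4Δ* (49 reads; 15.7% to 25.8%) and 39.2% in *ubp8Δ* (2398 reads; 38.0% to 40.4%). The ORF signal of *CHO2* itself was 18.26 RPM in *rpb4Δ* and 158.67 RPM in *ubp8Δ*, whereas its window signal was nearly level.
The reads were spread over many positions rather than a single site: 34 positions in *rpb4Δ* and 180 in *ubp8Δ* inside *ITR1*, and 19 in *rpb4Δ* and 125 in *ubp8Δ* inside *CHO2*. *OPI1* had 0 ORF reads in *rpb4Δ*, which allows a share of up to 4.11% (3 reads of 73) or, by the upper Wilson limit, 5.0%, and 37 ORF reads in *ubp8Δ*, or 22.2%. The other 4 members with 20 reads in both libraries had at most 1.37% in *rpb4Δ* and at most 2.36% in *ubp8Δ*. *INO1* had 11.2% in *rpb4Δ* from 2 reads and 9.53% in *ubp8Δ* from 1030 reads, which do not differ beyond their intervals.

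**Figure D4:**
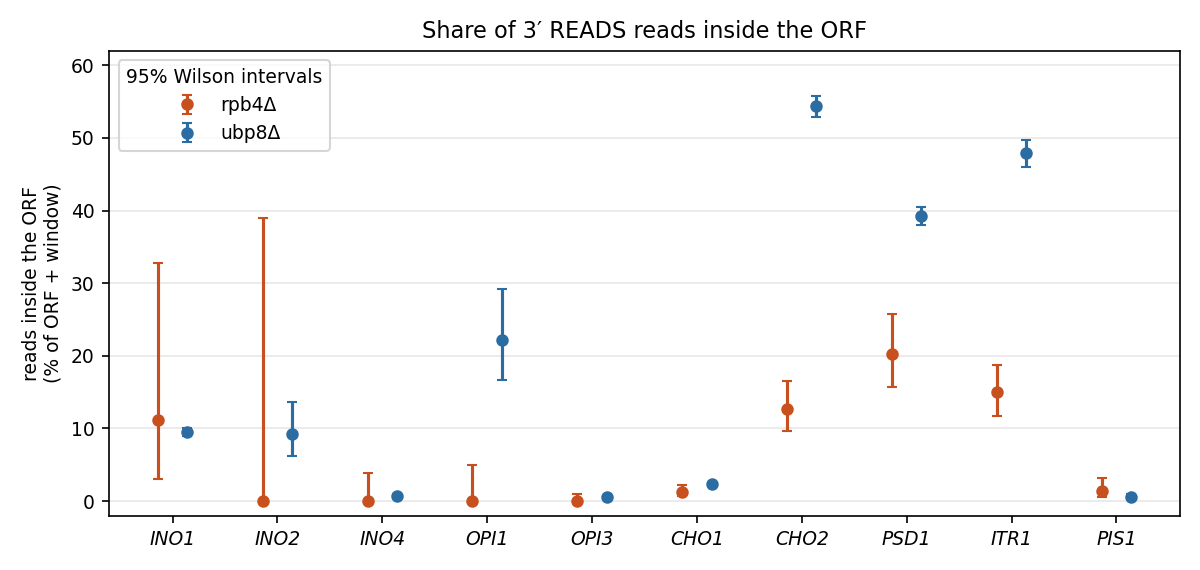
Reads inside the ORF as percent of reads in ORF and window for the 10 genes, with Wilson 95% intervals (*rpb4Δ* in orange, left of *ubp8Δ* in blue, for each gene). *CHO2*, *ITR1*, *PSD1* and *OPI1* have intervals that lie lower in *rpb4Δ* and do not overlap those of *ubp8Δ*.

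A lower share inside the ORF was common in *rpb4Δ* and was not confined to these genes. It was lower by at least 5 percentage points in 4 of 8 members (*OPI1*, *CHO2*, *PSD1* and *ITR1*), beside 48.5% of 4603 ORFs, and higher by as much in 0 of 8, beside 6.43%. Over all ORFs, 5.13% of reads lay inside the ORF in *rpb4Δ* and 10.8% in *ubp8Δ*. In the wider list of 31 genes the share was lower by at least 5 points in 22 of 30. Among its 26 genes with at least 20 reads in both windows, the highest shares were found in *ITR2*, the second inositol transporter gene, with 54.8% in *rpb4Δ* and 82.2% in *ubp8Δ*, *GEP4*, a mitochondrial phosphatase gene of cardiolipin synthesis, with 48.0% in *rpb4Δ* and 70.7% in *ubp8Δ*, and *EKI1*, an ethanolamine kinase gene, with 28.2% in *rpb4Δ* and 82.5% in *ubp8Δ*. Both inositol transporter genes thus had many reads inside the ORF in *ubp8Δ* and fewer in *rpb4Δ*.

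The sites of the wider list moved in both directions. *INM2* had its weighted average at 111 nt in *rpb4Δ* and 182 nt in *ubp8Δ*, a difference of -71.2 nt (SE 8.30), but its window runs into the next gene on the same strand, which begins 322 nt downstream and held 8.63% of the window signal in *rpb4Δ* and 33.2% in *ubp8Δ*. *CRD1*, the cardiolipin synthase gene, differed by -35.4 nt (SE 8.42). *GEP4* differed by 57.7 nt (SE 6.0) and *TAM41*, a mitochondrial CDP-diacylglycerol synthase gene, by 38.5 nt (SE 4.23). Among the 10 genes the next gene on the same strand lay nearer than 400 nt in 6, and only for *OPI3*, with *NPA3* at 191 nt, did any signal fall beyond its start, 0% in *rpb4Δ* and 0.41% in *ubp8Δ*.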

How the data were processed

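The 4 samples used were 3′ READS libraries, with 2 biological replicates each of *rpb4Δ* and *ubp8Δ* merged by the authors into a single profile. The 8 samples of NET-seq were not used. The authors aligned 17 bases after the trimmed T stretch to SacCer3 with Bowtie, keeping unique matches and reads whose As are not encoded in the genome. The deposited window, highest-position and ORF values are in RPM, whose scaling is not described in the sources used here. Position values are deposited as a percent of the highest position. Whole reads were recovered from the RPM step of 1 read, and 100% of 4611 values in *rpb4Δ* and 4917 in *ubp8Δ* were whole multiples of it within 0.005 RPM.

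Scripts ran in Python 3.11.15, using scipy 1.17.1, pandas 2.3.3, numpy 2.4.6 and matplotlib 3.10.9. Calls needed at least 20 reads in both libraries and a 2-fold, 20 nt or 5 percentage point difference. Intervals were exact Poisson (RPM), exact conditional binomial (ratios) and Wilson (shares) at 95%. PCR reads without molecular identifiers are not independent molecules. Expected positions at equal reads came from hypergeometric rarefaction. The functions were tested on simulated data. Names, positions and bases came from the files and the R64 assembly, in which all 10 members have the same coordinates as in the profiles. All 10 members are named, whatever their values, and of the wider list the extremes of ratio, of position and of share inside the ORF. The members and lists were chosen with earlier results of these data known. A read minimum in either library, a Fisher's exact test on recovered reads and a minimum of 1 read for the ORF share were added after seeing the data.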

Additional observations from a re-analysis of the deposited data

How the results depend on the processing

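The log2 ratios of *INO1*, *INO2*, *INO4*, *OPI3*, *CHO1* and *PSD1* stayed negative under all 6 alternatives of scaling, window and signal. The number of members lower past 2-fold in *rpb4Δ* was 4 of 8, beside 11.4% of all ORFs, and ranged from 3 to 6 over 10 alternatives. It was 3 of 6 with at least 100 reads, beside 8.25%, and 5 of 8 with window and ORF reads together, beside 16.1%. By Fisher's exact test in place of the fold it was 5 of 8, beside 31.5%. The value of 6 of 10 arose only where *INO1* and *INO2* entered, beside 17.7% with 1 read in both libraries and 19.9% with 20 reads in either. The median log2 ratio of the 10 members moved to -1.88 with window and ORF reads together. The number of members higher in *rpb4Δ* was 1 of 8, beside 19% of all ORFs. With at least 100 reads it became 0 (6 members tested, without *OPI1*), beside 19.9%. By a two-sided Fisher's exact test on recovered reads it was 2 of 8, beside 44.1%. That test compares the libraries only and called 75.7% of 4248 ORFs at an adjusted p under 0.05.

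At the highest position alone *OPI1* had a log2 ratio of 0.90 and *ITR1* of 2.28, so that *ITR1* and not *OPI1* was then higher past 2-fold.

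Positions depended more on the measure. By the highest position instead of the weighted average, the median shift was 0 nt, the counts of members upstream and downstream were 0 and 0, and *CHO2* and *PSD1* reversed to 4 nt each. With the weighted median the downstream count was also 0, beside 8.07% of all ORFs. The members upstream were *OPI3* (-29 nt) and *PSD1* (-80 nt) in place of *CHO2* (-4 nt) and *PSD1*, beside 9.46%. The upstream count was 1 of 8 with sites of at least 5%, beside 11% of all ORFs, and the median difference was -8.09 nt with at least 100 reads. When each position with a genomic A at it or next to it downstream was dropped, *PSD1* reversed to 42.0 nt and *ITR1* to -103 nt, where 10.9% of *PSD1* signal was left in *rpb4Δ* and 6.93% in *ubp8Δ*, and 0.30% of *ITR1* signal in *rpb4Δ* and 7.50% in *ubp8Δ*. The median number of sites in *rpb4Δ* was 4 with sites of at least 5% and 4 with sites within 10 nt merged. In *ubp8Δ* it was 12.5 with sites of at least 1%, 4 with sites of at least 5% and 6 merged. The median overlap of profiles was 75.3% smoothed over 11 nt, 74.6% with sites of at least 5% and 50.5% after that same removal. The median share inside the ORF in *ubp8Δ* was 20.1% against the highest position and 9.40% with at least 1 read in both libraries.

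No paired analysis was possible because the replicates of each strain were pooled into 1 profile, and leaving out a replicate was not possible. Depth limits *INO1* and *INO2*, with 16 and 6 window reads in *rpb4Δ*.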
